A study of Rattus norvegicus with 38 samples.

Results

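The genes described here are 7 CXC chemokines that draw lymphocytes or act as standing (homeostatic) signals: Cxcl9, Cxcl10, Cxcl11, Cxcl12, Cxcl13, Cxcl14 and Cxcl16. They were taken by name, 7 of the 14217 genes with a probe set annotated to that gene alone, and they were read by 11 probe sets: 3 for Cxcl12, 2 each for Cxcl9 and Cxcl14, and 1 for each of the others. The probe set with the highest mean stands for a gene unless another is named. RNA came from about 25 mg of lung of each of 38 female N:NIH rats, aged 34 weeks, each measured on its own Affymetrix Rat Genome 230 2.0 array. The rats belonged to lines bred for low (LCR, low capacity runner) or high (HCR, high capacity runner) intrinsic exercise capacity, and breathed cigarette smoke or, as sham, room air, on 5 days a week for 12 weeks. There were 12 LCR smoke, 7 LCR sham, 12 HCR smoke and 7 HCR sham rats. The lines differ by selective breeding. The tissue was a piece of lung with all its cells, so in every result below fewer cells of a type and less RNA per cell cannot be told apart.

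Chemokines are small secreted proteins that steer leukocytes through G protein-coupled receptors. Cxcl9, Cxcl10 and Cxcl11 are made after interferon exposure and call in activated T cells and natural killer cells through Cxcr3. Cxcl12 (through Cxcr4) and Cxcl13 (through Cxcr5) hold cells in place in tissue and lymphoid follicles, Cxcl14 is made steadily by epithelia and stromal cells, and Cxcl16 is a membrane-bound ligand of Cxcr6 on macrophages and dendritic cells that is released by shedding.

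Levels are the deposited intensities, whose scale is set by each probe set, so levels of different genes are not compared. Each change is a log2(intensity + 16) difference ± its standard error (SE), a scale that understates the change of a dim gene. Each adjusted p is from limma with 4 group means over 38 arrays, adjusted by Benjamini-Hochberg over all genes, with a threshold of 0.05. The number of arrays limits the precision. Arrays were numbered group after group, so numbering order and group cannot be told apart.

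The airway product Scgb1a1 was bright on every array, between 9614 and 11118, as fits a lung sample. Arrays HCR sham 0433, LCR sham 0442 and HCR smoke 0410, 0414, 0415 and 0417 had the most heart muscle signal. Relative to the average array, their mean of heart muscle markers was 1.60 to 3.99 log2, while the other 32 arrays had -1.0 to 1.23, and HCR sham 0433 also had a skeletal muscle mean of 4.88 and a fat cell mean of 1.92. Some of the other 32 arrays also carried heart muscle signal, with highest values of 0.72 to 1.23 by group, against group medians of -0.87 to -0.63. Results were recomputed without the 6 named arrays, and the value is given wherever the call of a chemokine ended. Smoke arrays had a narrower spread of log2 values, with an interquartile range of 2.92 ± 0.08 in LCR smoke (SD, n = 12) against 3.0 ± 0.02 in LCR sham (SD, n = 7), and 2.86 ± 0.06 in HCR smoke against 2.99 ± 0.04 in HCR sham. The Actb 3' minus 5' difference, a measure of RNA quality in log2, was 0.65 ± 0.04 in LCR smoke against 0.84 ± 0.14 in LCR sham, and 0.67 ± 0.07 in HCR smoke against 0.93 ± 0.51 in HCR sham. HCR sham 0432 was apart on it at 2.07, where no other array exceeded 1.08, and at 1.22 for Gapdh, where no other exceeded 0.397. The calls with smoke in the 7 genes held with either difference as a covariate and without HCR sham 0432, except that Cxcl13 in LCR ended with the Actb covariate (adjusted p = 0.053), and Cxcl12 in HCR passed without HCR sham 0432 (0.0472).

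Smoke changed 4 of the 7 chemokine genes in LCR lungs, and the lines shared 2 of these changes. Cxcl11 and Cxcl16 rose in LCR and in HCR, Cxcl12 and Cxcl13 fell in LCR, and Cxcl9 fell in HCR. Cxcl10 and Cxcl14 passed in neither line. In LCR the 2 higher and 2 lower calls stand against 50.6% of all genes called (22.7% higher and 27.9% lower), and in HCR the 2 higher and 1 lower calls stand against 48% (17.7% higher and 30.4% lower), so the share of members called is near that of all genes. The median change of the 7 genes was 0.20 in LCR and 0.29 in HCR, against -0.0046 and -0.03 over all genes. Of all calls, 44.8% were higher in LCR and 36.8% in HCR, and 64.7% and 53.1% with median-centred arrays. The smoke and line comparisons share arrays, so their values are set side by side only.

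**Figure D1:**
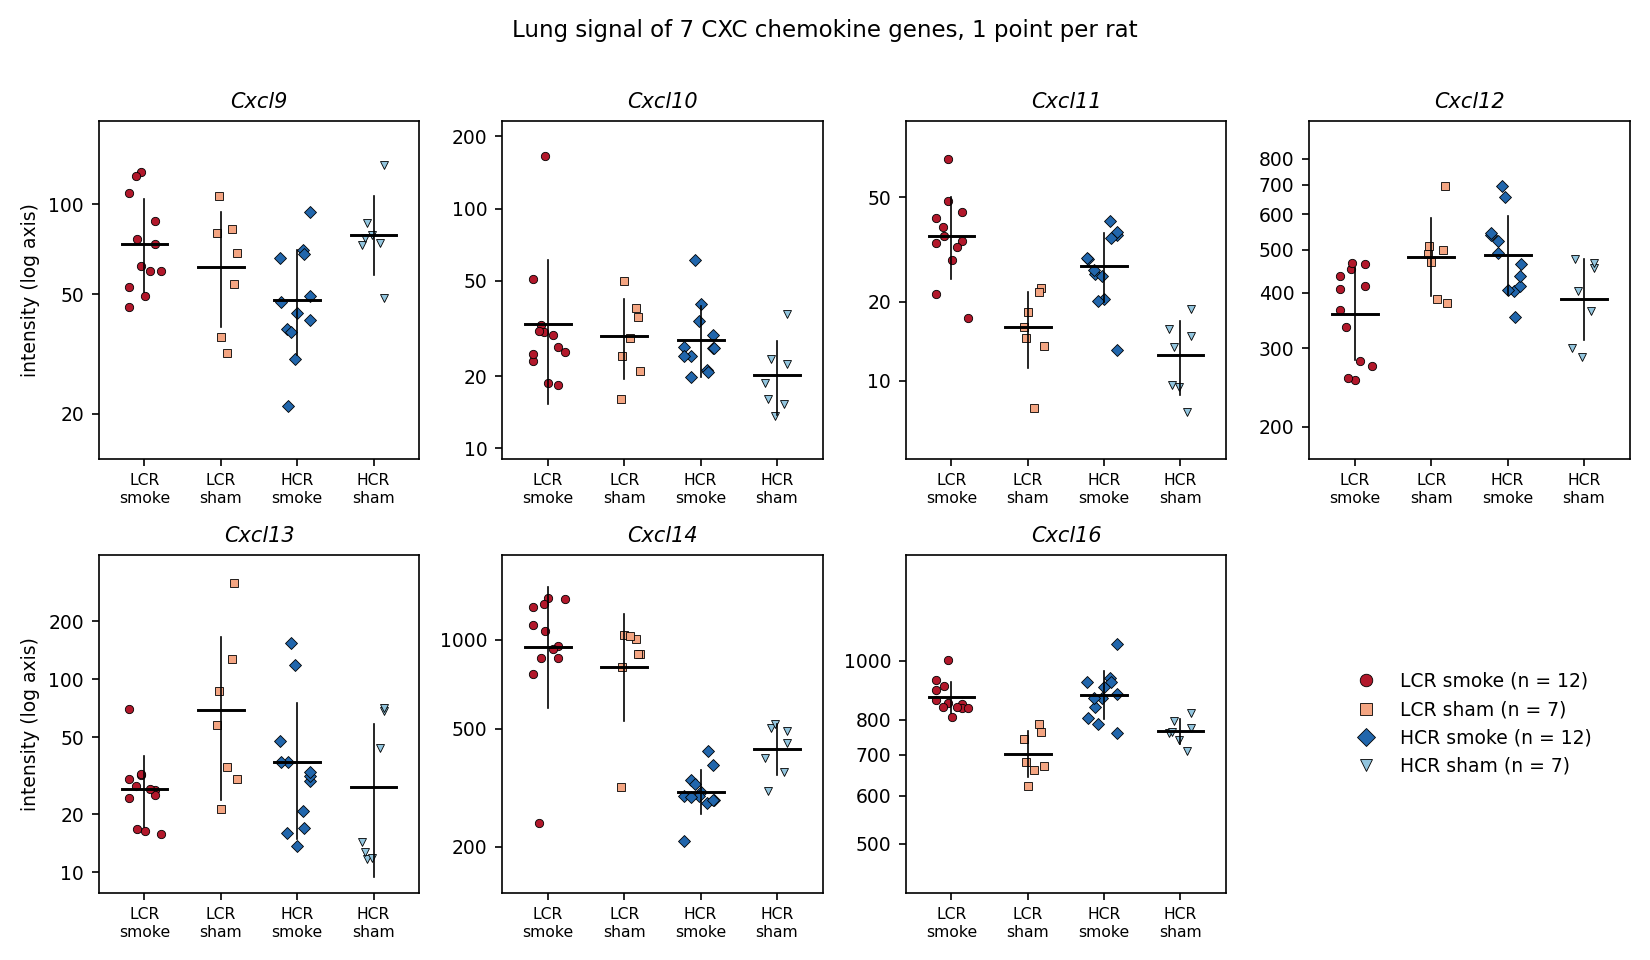
Intensity (log axis) of the 7 chemokine genes in each lung, 1 point per rat, for LCR smoke, LCR sham, HCR smoke and HCR sham. Bars are the mean and SD on the log2(intensity + 16) scale. Cxcl16 lies higher on all 12 LCR smoke arrays than on any LCR sham array, and Cxcl14 separates the lines except for 1 LCR smoke and 1 LCR sham array.

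The Cxcr3 ligand genes are neighbours, in the order Cxcl11, Cxcl10 and Cxcl9 on rat chromosome 14. The 250 bases before each start, from RefSeq on build GRCr8 (+ strand), are shown because these neighbours are textbook targets of NF-kappa B and interferon signalling. Capitals mark matches on either strand to GGGANNTTC (a kappa B letter pattern), GAAANNGAA (interferon-stimulated response element), TTCNNNGAA (gamma-activated site) and TATAAA.
Cxcl11, chr14:15973478-15973727: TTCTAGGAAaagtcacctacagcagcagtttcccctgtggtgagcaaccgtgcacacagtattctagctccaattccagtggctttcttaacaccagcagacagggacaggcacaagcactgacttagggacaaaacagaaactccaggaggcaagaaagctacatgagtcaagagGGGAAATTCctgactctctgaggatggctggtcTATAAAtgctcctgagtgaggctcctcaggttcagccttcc
Cxcl10, chr14:15988816-15989065: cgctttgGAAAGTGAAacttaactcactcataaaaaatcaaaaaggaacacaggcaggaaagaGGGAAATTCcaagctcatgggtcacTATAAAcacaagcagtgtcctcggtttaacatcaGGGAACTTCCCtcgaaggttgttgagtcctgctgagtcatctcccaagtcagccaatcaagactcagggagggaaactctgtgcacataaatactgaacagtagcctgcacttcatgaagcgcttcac
Cxcl9, chr14:16006916-16007165: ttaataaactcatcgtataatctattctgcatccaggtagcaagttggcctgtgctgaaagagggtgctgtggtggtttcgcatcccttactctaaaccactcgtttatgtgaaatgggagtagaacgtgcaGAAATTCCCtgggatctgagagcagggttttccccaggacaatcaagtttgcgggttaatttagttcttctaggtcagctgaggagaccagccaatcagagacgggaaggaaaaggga

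The kappa B pattern began 74 bases before the start of Cxcl11, 187, 128 and 126 bases before that of Cxcl10, where the last 2 matches overlap on opposite strands, and 118 bases before that of Cxcl9. It is in 3.36% of 33469 promoters of this length. The interferon-stimulated pattern was in Cxcl10, 243 bases before the start (8.12% of promoters), and the gamma-activated pattern in Cxcl11, 250 bases before it (7.67%). TATAAA stood 41 bases before the start of Cxcl11, 162 before that of Cxcl10 and 33 before that of Cxcl13 (12.9% of promoters). None of the 4 patterns was found in this window of Cxcl12, Cxcl14 or Cxcl16. A match is only a run of letters and shows no binding.

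Cxcl11, the Cxcr3 ligand with the strongest receptor binding, had 17.4, 34.9 and 69.9 as its lowest, median and highest intensity in LCR smoke, against 7.88, 16 and 22.6 in LCR sham. In HCR it had 13.1, 27.9 and 40.5 in smoke, against 7.56, 13.4 and 18.7 in sham. Of the 12 smoke arrays of each line, 10 in LCR and 11 in HCR were above every sham array of that line. It rose by 0.69 ± 0.13 in LCR (adjusted p = 5.3e-05) and by 0.61 ± 0.13 in HCR (adjusted p = 0.000335). The difference between these changes was 0.08, with a 95% interval of -0.30 to 0.46. With a pseudocount of 1, which weighs dim values more, the changes were 1.12 and 1.08.

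Cxcl9, the ligand most closely tied to interferon gamma, fell with smoke in HCR. Its lowest, median and highest intensities were 45.2, 67.8 and 128 in LCR smoke, and 31.9, 68.9 and 107 in LCR sham. In HCR smoke they were 21.2, 45.4 and 94.3, against 48.4, 77.0 and 135 in HCR sham. The LCR groups overlapped over most of their range, while 7 of 12 HCR smoke arrays were below every HCR sham array. Cxcl9 fell by 0.57 ± 0.20 on the log2 scale in HCR (adjusted p = 0.0174) and differed by 0.20 ± 0.20 in LCR (adjusted p = 0.402). The difference between the changes, 0.78 ± 0.28, did not pass (adjusted p = 0.122), but it passed with array weights (0.0458). The HCR call ended without HCR sham 0438, the brightest sham array (adjusted p = 0.0602), without the 6 arrays with muscle signal (0.078), with the mean of both probe sets (0.0559) and with the arrays' interquartile range as a covariate (0.075). The other Cxcl9 probe set changed by -0.38 ± 0.21 in HCR (adjusted p = 0.158 over all probe sets). Its LCR value was 0.40 ± 0.21 (adjusted p = 0.128), and its changes differed by 0.77 ± 0.30 (adjusted p = 0.171).

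Cxcl10, the third Cxcr3 ligand, had 18.3, 28.0 and 166 in LCR smoke, against 16.1, 28.9 and 50.03 in LCR sham. In HCR it had 19.9, 26.2 and 61.1 in smoke, against 13.6, 18.7 and 36.5 in sham. The groups overlapped widely, and 1 array, LCR smoke 0426, stood far above the next brightest of its group, which had 51.0. Neither change passed, at 0.11 ± 0.21 in LCR (adjusted p = 0.668) and 0.29 ± 0.21 in HCR (adjusted p = 0.248). Without LCR smoke 0426 the LCR value was -0.06. That array also held the highest LCR smoke intensity of Cxcl11 (69.9), Cxcl12 (468) and Cxcl16 (1003).

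Ifng, the interferon that induces these ligands, was among the dimmest genes, between 2.86 and 4.01 on all arrays, and passed in no comparison. Of 18 measured interferon gamma signalling and target genes, 5 rose and 5 fell in LCR, and 6 rose and 1 fell in HCR. These 10 and 7 calls stand against 50.6% and 48% of all genes called. The median change of the 18 genes was -0.04 in LCR and 0.01 in HCR. The LCR values given next are all from genes that rose, and no LCR value is given for the 5 that fell. The receptor chain gene Ifngr2 rose by 0.51 ± 0.05 in LCR (adjusted p = 8.96e-11) and by 0.35 ± 0.05 in HCR (adjusted p = 2.75e-07). The kinase gene Jak2 rose by 0.45 ± 0.08 in LCR and 0.29 ± 0.08 in HCR, Nos2, the inducible nitric oxide synthase, by 0.35 ± 0.08 and 0.30 ± 0.08, and the transcription factor gene Irf1 by 0.15 ± 0.05 and 0.24 ± 0.05. Ifngr1, the ligand-binding chain, fell by 0.23 on the log2 scale in HCR. Of 13 type I interferon response genes, 4 fell and 0 rose in LCR, among them the antiviral genes Mx2 (-0.85 ± 0.20) and Oas1a (-0.56 ± 0.14). In HCR 1 rose, Ifit3 (0.44 ± 0.16), and 1 fell, Oas1a (-0.70 ± 0.14). Of all genes, 27.9% were called lower in LCR, near the share of this list, and 17.7% higher and 30.4% lower in HCR.

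Of 14 markers of T cells, which these ligands attract, 8 fell, 1 rose and 5 did not pass with smoke in LCR, and 3 rose and 0 fell in HCR. Over all genes 27.9% were called lower and 22.7% higher in LCR, and 30.4% and 17.7% in HCR. Cd247, the zeta chain of the T cell receptor, fell by 0.56 in LCR (adjusted p = 7.3e-05) and Cd8a fell by 0.76 on the log2 scale, while the costimulator gene Icos rose in LCR (0.30) and in HCR (0.36). Of 12 cytotoxic lymphocyte markers, 5 fell and 7 did not pass in LCR, among them Eomes (-0.53 ± 0.09) and Gzmm (-0.76 ± 0.18), and 0 passed in HCR with limma, at an adjusted or an unadjusted p under 0.05, a count that was 4 with the Actb 3' minus 5' difference as a covariate, 3 with that of Gapdh, and 1 with array weights or with median-centred arrays. The difference between the lines' changes passed for 3 of the 14 T cell markers and 1 of the 12 cytotoxic markers, lower in LCR, against 0.352% of all genes, and with 1 array left out each of these counts ran from 0 to 6. Under sham, 10 of the 12 cytotoxic markers were higher in LCR than in HCR, against 1.39% of all genes, with Ncr1 at 0.84 ± 0.13, Gzmm at 1.29 ± 0.20 and Nkg7 at 1.32 ± 0.22, and 0 were lower. Under smoke 5 of the 12 were higher in LCR and 0 lower, against 4.61% of all genes called higher. With 1 array left out the count called under smoke ran from 1 to 7. The T cell list mean ran from -0.27 to 0.19 log2 in LCR smoke, against -0.03 to 0.36 in LCR sham, and from -0.15 to 0.28 in HCR smoke, against -0.37 to 0.28 in HCR sham. The part of these cells in the chemokine changes was not tested.

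Cxcr3, the receptor of all 3 ligands, differed by line. Its intensity ranged from 40.3 to 56.0 in LCR smoke, with a median of 49.0, against 25.1 to 58.1 in HCR smoke, with a median of 35.9. Under sham it ranged from 39.2 to 70.4 in LCR (median 52.8), against 24.0 to 36.6 in HCR (median 31.8), with no overlap. Cxcr3 was higher in LCR by 0.27 ± 0.07 under smoke (adjusted p = 0.0231) and by 0.59 ± 0.10 under sham (adjusted p = 0.000248). Its smoke changes, -0.13 ± 0.08 in LCR and 0.19 ± 0.08 in HCR, did not pass.

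**Figure D2:**
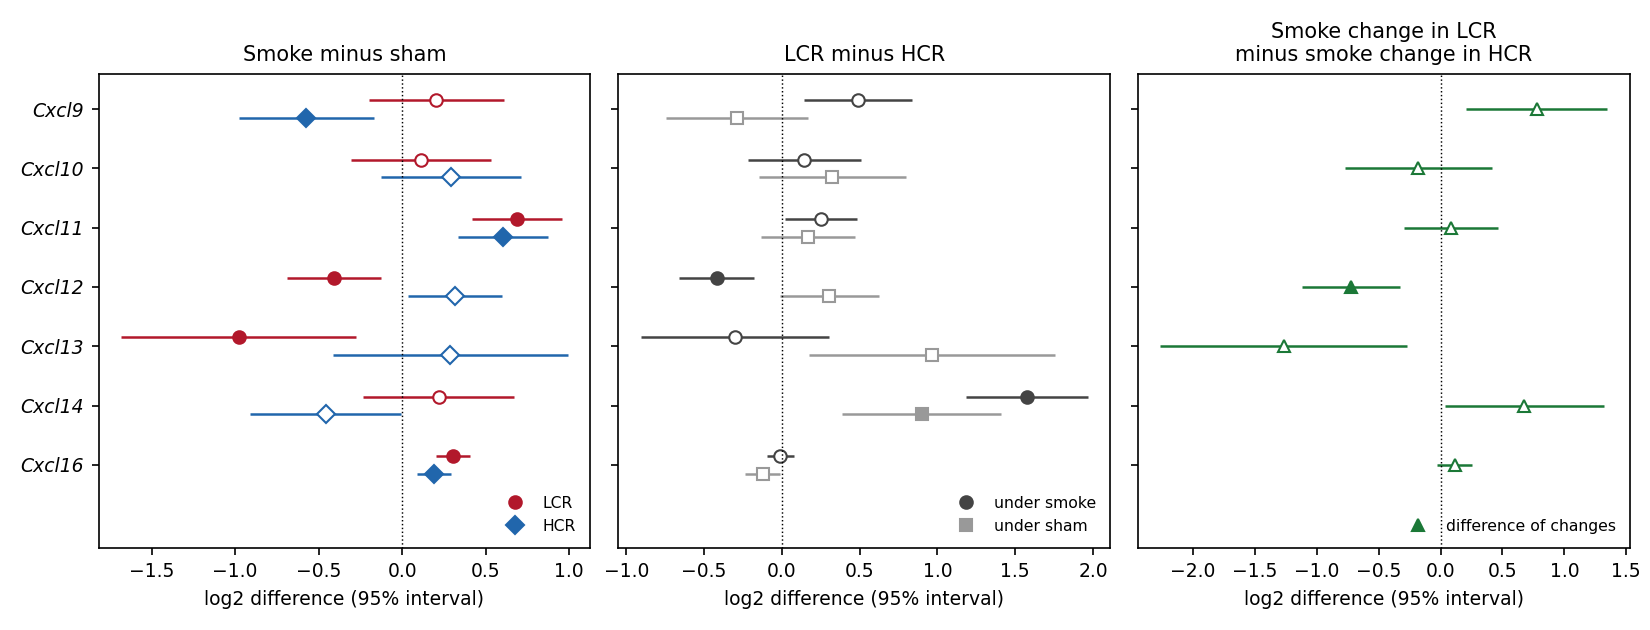
Log2 differences of the 7 genes with 95% intervals from limma: smoke minus sham in each line (left), LCR minus HCR under each exposure (middle) and how far the smoke change of LCR exceeds that of HCR (right). Filled symbols passed an adjusted p of 0.05. Cxcl11 and Cxcl16 are filled above 0 for both lines on the left, and Cxcl14 lies farthest from 0 in the middle, at 1.58 under smoke.

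Cxcl16, the shed membrane chemokine, rose with smoke in both lines. It had 809, 849 and 1003 in LCR smoke, against 622, 682 and 788 in LCR sham. In HCR it had 762, 876 and 1068 in smoke, against 710, 764 and 821 in sham. All 12 LCR smoke arrays were above every LCR sham array, and 9 of 12 HCR smoke arrays were above every HCR sham array. The rise was 0.30 ± 0.05 in LCR (adjusted p = 4.9e-06) and 0.19 ± 0.05 in HCR (adjusted p = 0.00185), and the changes differed by 0.11 (95% interval -0.03 to 0.26). Of 11 macrophage markers, 9 rose and 1 fell in LCR, led by C1qb (1.47 ± 0.12), Gpnmb (1.57 ± 0.13) and Cd68 (1.80 ± 0.16), and 7 rose and 2 fell in HCR, led by C1qb (1.06 ± 0.12) and Gpnmb (1.003 ± 0.13). Of all genes, 22.7% were called higher and 27.9% lower in LCR, and 17.7% and 30.4% in HCR. The macrophage list mean was 0.00 to 0.65 log2 in LCR smoke against -0.84 to -0.39 in LCR sham, and -0.11 to 0.39 in HCR smoke against -0.44 to -0.07 in HCR sham. Their part in the rise of Cxcl16 was not tested. The sheddase genes Adam10 and Adam17, and Dpp4, whose protease clips several of these ligands, passed in none of the 5 comparisons, where unadjusted p was under 0.05 for Adam17 between the lines under smoke (0.0296) and for Dpp4 between the lines under sham (0.0203). Cxcr6 was not analysed here.

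Cxcl12, the stromal and endothelial ligand of Cxcr4, gave smoke values of opposite sign in the lines on its brightest probe set, and the answer depends on the probe set. With 1369633_at, the brightest, it had 255, 387 and 468 in LCR smoke, against 380, 489 and 695 in LCR sham. In HCR it had 353, 478 and 694 in smoke, against 287, 404 and 477 in sham. All 12 LCR smoke arrays were below the LCR sham mean and 6 were below every LCR sham array, while 6 of 12 HCR smoke arrays were above every HCR sham array. Cxcl12 fell by 0.41 ± 0.14 on the log2 scale in LCR (adjusted p = 0.0141), and its value in HCR was 0.32 ± 0.14 (adjusted p = 0.058).

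The test of the difference between these changes passed, at -0.73 ± 0.20 (adjusted p = 0.0449). It is the only 1 of the 7 genes to pass there, against 1.87% of all genes called (1.52% higher and 0.352% lower). This call is narrow. It ended in 18 of the 38 fits that left out 1 array, with adjusted p between 0.0503 and 0.0953, namely those without LCR smoke 0428, 0429, 0430 or 0431, without LCR sham 0440, 0441, 0442, 0443, 0444 or 0445, without HCR smoke 0413, 0415, 0417 or 0419, or without HCR sham 0433, 0434, 0435 or 0436. It also ended without the 6 arrays with muscle signal (0.135) and with the mean of the 3 probe sets (0.0567). The LCR fall ended without LCR sham 0442, the brightest sham array (0.0562), without those 6 arrays (0.0551) and with the arrays' interquartile range as a covariate (0.084). LCR sham 0442 is the only LCR array among the 6, so the LCR value was -0.32 in both of the first 2 settings. The HCR value passed with median-centred arrays (0.0267), quantile normalization (0.025) and array weights (0.026), and in 8 fits without 1 array (0.0344 to 0.0487), those without HCR smoke 0408, 0409, 0414 or 0416, HCR sham 0432, 0438 or 0439, or LCR sham 0442. With the mean of probe sets it was -0.03.

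The other probe sets of Cxcl12 did not repeat this pattern alike. Probe set 1388583_at had 95.5, 125 and 140 in LCR smoke, against 205, 295 and 338 in LCR sham, and 81.2, 119 and 153 in HCR smoke, against 161, 195 and 357 in HCR sham. In both lines all 12 smoke arrays were below every sham array. It fell by 1.09 ± 0.12 in LCR (adjusted p = 8.3e-09 over all probe sets) and by 0.82 ± 0.12 in HCR (adjusted p = 2.5e-06), and the changes differed by -0.27 ± 0.17 (adjusted p = 0.453). Probe set 1387655_at had 52.1, 77.4 and 120 in LCR smoke, against 67.4, 101 and 144 in LCR sham, and 42.2, 93.9 and 135 in HCR smoke, against 26.4, 71.3 and 95.8 in HCR sham. Its changes were -0.28 ± 0.17 in LCR (adjusted p = 0.184) and 0.42 ± 0.17 in HCR (adjusted p = 0.0469), the signs of 1369633_at. The sham value of 26.4 came from HCR sham 0432, the array apart on RNA quality, and the next lowest HCR sham array had 48.4. This probe set was not refitted without HCR sham 0432.

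The gap between 1388583_at and 1369633_at on each array was then tested, a comparison chosen after the values were seen. The gap averaged -1.44 ± 0.43 log2 in LCR smoke (SD, n = 12) and -0.76 ± 0.31 in LCR sham (SD, n = 7), and -1.97 ± 0.27 in HCR smoke and -0.83 ± 0.35 in HCR sham. It changed by -0.68 ± 0.17 in LCR (exact two-sided permutation p = 0.00202, adjusted p = 0.00405 over 4 tests) and by -1.14 ± 0.15 in HCR (exact permutation p = 3.97e-05, the smallest this design gives, adjusted p = 0.000159). The other 2 of these tests, for 1387655_at minus 1369633_at, did not pass, with changes of 0.13 ± 0.05 in LCR (exact permutation test, adjusted p = 0.0586) and 0.11 ± 0.20 in HCR (exact permutation test, adjusted p = 0.573). Relative to 1369633_at, the signal of 1388583_at was thus lower after smoke in both lines, on 12 of 12 HCR smoke arrays and 8 of 12 LCR smoke arrays below every sham array. The Cxcl12 gene gives transcripts with different 3' ends by alternative splicing, and which of them each probe set reads was not examined.

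**Figure D3:**
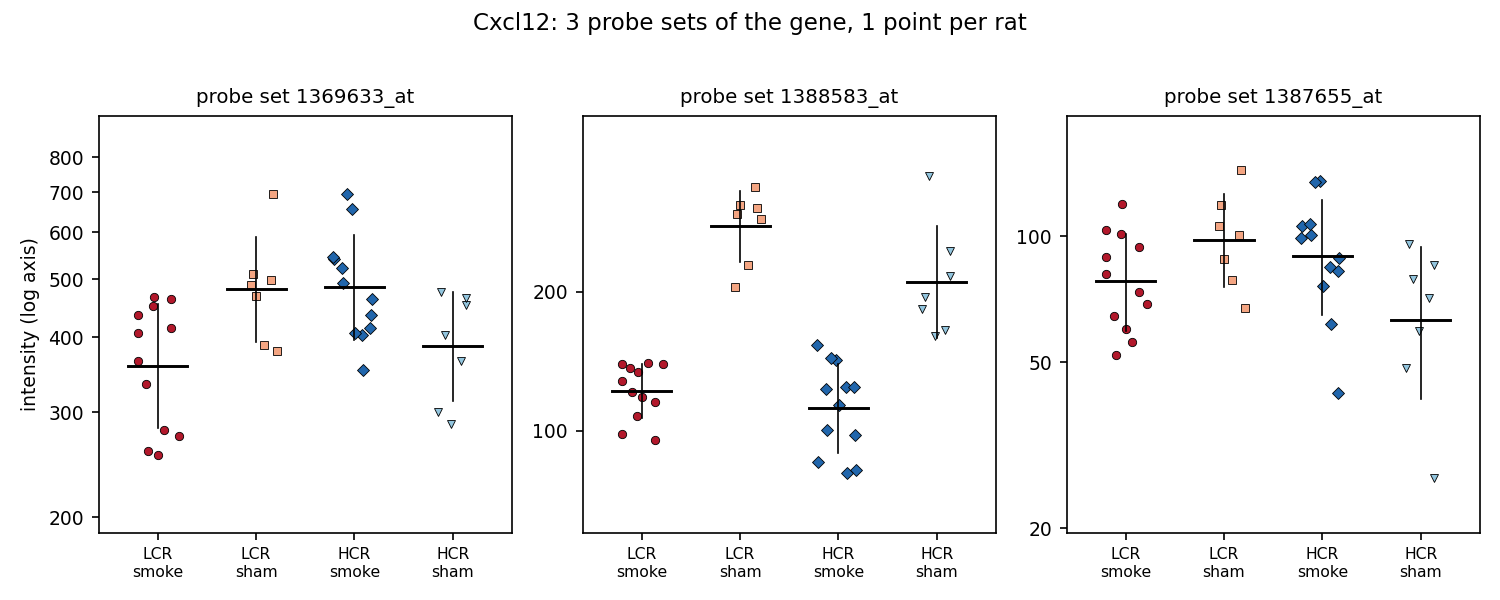
Intensity (log axis) of the 3 probe sets of Cxcl12 in each lung, 1 point per rat, for LCR smoke, LCR sham, HCR smoke and HCR sham, with bars for the mean and SD on the log2(intensity + 16) scale. On 1388583_at every smoke array lies below every sham array of its line, while on 1369633_at and 1387655_at the HCR smoke mean lies above the HCR sham mean.

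Between lines under smoke, Cxcl12 was lower in LCR than in HCR on 1369633_at, by 0.42 ± 0.12 (adjusted p = 0.029), with all 12 LCR smoke arrays below the HCR smoke mean. This call ended without LCR smoke 0429 (0.0586) or 0430 (0.0538), without HCR smoke 0417 (0.0558) or 0419 (0.0612), without the 6 arrays with muscle signal (0.0727), and with the mean of probe sets (0.311). Under sham the difference was 0.31 ± 0.16 (adjusted p = 0.308), and the other 2 probe sets passed under neither exposure.

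Endothelial markers, of 1 of the cell types that make Cxcl12, fell with smoke. All 7 fell in LCR and 6 of 7 in HCR, against 27.9% and 30.4% of all genes called lower, with Ace, the angiotensin converting enzyme of lung capillaries, at -0.58 ± 0.06 and -0.49 ± 0.06. Of 12 fibroblast and pericyte markers, 6 fell in LCR and 4 in HCR, the HCR share being near that of all genes, and 0 rose in either. Their median change was -0.42 in LCR and -0.05 in HCR, with the pericyte receptor gene Pdgfrb at -0.86 ± 0.07 and -0.74 ± 0.07 and Pdgfra at -0.53 ± 0.08 in both. The endothelial list mean was -0.33 to -0.10 log2 in LCR smoke against 0.06 to 0.37 in LCR sham, and -0.36 to 0.06 in HCR smoke against 0.17 to 0.37 in HCR sham. The fibroblast and pericyte mean was -0.44 to 0.14 in LCR smoke against 0.05 to 0.55 in LCR sham, and -0.35 to 0.34 in HCR smoke against -0.12 to 0.34 in HCR sham. The part of these cells in the Cxcl12 values was not tested.

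Of the Cxcl12 receptors, Cxcr4 passed in no comparison, with medians of 1099 in LCR smoke, 1222 in LCR sham, 1177 in HCR smoke and 1096 in HCR sham. Ackr3, which scavenges Cxcl11 and Cxcl12, rose in HCR by 0.32 ± 0.07 (adjusted p = 0.000344, 12 of 12 above the sham mean), and its LCR value was 0.09 ± 0.07.

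Cxcl13, the B cell chemokine of lymphoid follicles, varied widely within groups, with an SD of 1.10 log2 in LCR sham, against 0.38 in LCR smoke, and of 0.79 in HCR smoke, against 0.78 in HCR sham. It had 15.8, 26.9 and 69.9 in LCR smoke, against 21.2, 58.1 and 317 in LCR sham. In HCR it had 13.6, 32.3 and 154 in smoke, against 11.7, 14.3 and 71.5 in sham. The brightest arrays were LCR sham 0442 (317) and 0443 (128) and HCR smoke 0419 (154) and 0417 (120), while LCR smoke reached 69.9. Cxcl13 fell by 0.98 ± 0.35 on the log2 scale in LCR (adjusted p = 0.0187), with 11 of 12 smoke arrays below the sham mean and 3 below every sham array, and its HCR value was 0.29 ± 0.35 (adjusted p = 0.516).

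The fall in LCR rested on the bright sham arrays. Without LCR sham 0442 it was -0.65 (adjusted p = 0.0957) and without 0443 it was -0.85 (0.0528). The call also ended with array weights (0.0659), with the Actb difference (0.053) or the interquartile range (0.0814) as a covariate, and without the 6 arrays with muscle signal (0.0834). Of the 6, only LCR sham 0442 is an LCR array, so the last setting gave the same value, -0.65. The difference between the lines' changes, -1.27 ± 0.49, did not pass (adjusted p = 0.147), nor did LCR minus HCR under sham, 0.96 ± 0.39 (adjusted p = 0.174), or under smoke, -0.30 ± 0.30 (adjusted p = 0.563).

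After removal of the group means, the 3 genes most like it among all genes, by Pearson's r over 38 arrays, were Ccl19 (0.87), which guides T cells and dendritic cells in lymphoid tissue, Glycam1 (0.86), a mucin of high endothelial venules, and Cr2 (0.84), the complement receptor of B cells and follicular dendritic cells. Without the 6 arrays with muscle signal r was 0.83, 0.79 and 0.80. These values were chosen as the highest and carry no test. LCR sham 0442 held the highest LCR sham intensity of Ccl19 (404), Glycam1 (296) and Cr2 (94.4), and also the highest heart muscle mean (3.99). HCR smoke 0419 held the highest HCR smoke values of all 3 genes (297, 231 and 79.2). Its heart muscle mean of 0.72 was the highest of the 8 HCR smoke arrays outside the 6, where the HCR smoke median was -0.63. How much lymphoid tissue each 25 mg piece held was not tested.

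**Figure D4:**
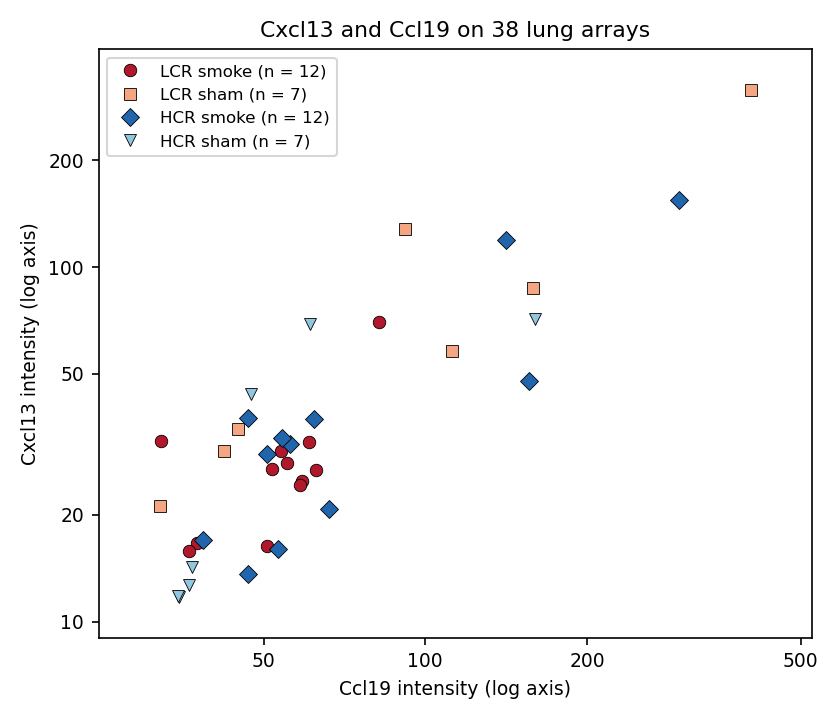
Intensity of Cxcl13 against that of Ccl19 (both log axes), 1 point per lung, with symbols for LCR smoke, LCR sham, HCR smoke and HCR sham. The arrays with the highest Cxcl13, LCR sham 0442 at 317 and HCR smoke 0419 at 154, also have the highest Ccl19, at 404 and 297.

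B cell markers moved with smoke beside Cxcl13 in LCR. Of 9 measured, 7 fell and 0 rose in LCR, and 1 fell and 1 rose in HCR. The shares of all genes called lower and higher were 27.9% and 22.7% in LCR, and 30.4% and 17.7% in HCR. The B cell scaffold gene Bank1 fell by 1.82 ± 0.15 in LCR and fell by 1.42 ± 0.15 in HCR, with 12 of 12 smoke arrays below the sham mean in both, and in LCR Cd37 (-0.47 ± 0.09), Fcmr, a receptor for IgM (-0.86 ± 0.17), and Cr2 (-0.85 ± 0.21) also fell. In HCR the IgE receptor gene Fcer2 rose (0.35 ± 0.08). The B cell list mean was -0.46 to 0.08 log2 in LCR smoke against 0.13 to 0.80 in LCR sham, without overlap, and -0.37 to 0.56 in HCR smoke against -0.27 to 0.53 in HCR sham. Of 4 plasma cell markers, 3 fell in LCR, among them Mzb1 (-0.46 ± 0.17), and 0 in HCR with limma at an adjusted or an unadjusted p under 0.05. The part of B cells in the fall of Cxcl13 was not tested.

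Cxcr5, the receptor that reads Cxcl13, rose in both lines. It had medians of 145 in LCR smoke and 125 in LCR sham, and of 194 in HCR smoke and 124 in HCR sham, where all 12 HCR smoke arrays (153 to 258) were above every HCR sham array (99.2 to 152). It rose by 0.28 ± 0.12 in LCR (adjusted p = 0.044) and by 0.60 ± 0.12 in HCR (adjusted p = 9.2e-05). The LCR call is narrow: 0 receptor genes passed there without the 6 arrays with muscle signal, with array weights, with the mean of probe sets, with any of the 3 covariates, or without 1 of LCR smoke 0420, 0421, 0422, 0423 or 0430 or LCR sham 0440, 0441, 0442, 0443, 0444 or 0445. Of 13 measured genes that organise lymphoid tissue, 6 rose and 0 fell in each line, against 22.7% of all genes called higher in LCR and 17.7% in HCR. Those that rose were led by Ltb, a lymphotoxin chain (0.75 ± 0.13 in LCR and 0.68 ± 0.13 in HCR), and the interleukin receptor gene Il7r (0.60 ± 0.10 and 0.50 ± 0.10), with the noncanonical NF-kappa B genes Nfkb2 (0.48 ± 0.09 and 0.28 ± 0.09) and Relb (0.39 ± 0.08 in both). Ccl19 was not among them, at -0.66 ± 0.33 in LCR and 0.42 ± 0.33 in HCR. Ackr4, which scavenges Ccl19 and Ccl21, fell by 0.75 ± 0.12 in HCR (adjusted p = 7.3e-06), and its LCR value was -0.26 ± 0.12 (adjusted p = 0.0727). Under smoke Ackr4 was higher in LCR than in HCR by 0.40 ± 0.11 (adjusted p = 0.0197), a call that, like that of Cxcr3 under smoke, ended without the 6 arrays with muscle signal and with the arrays' interquartile range as a covariate.

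Cxcl14 passed in LCR minus HCR under smoke and under sham, as 1 of 2 members called under smoke, with Cxcl12, against 6.32% of all genes (4.61% higher and 1.7% lower), and as the only 1 under sham, against 3.73% (1.39% higher and 2.34% lower). Of all calls, 73.1% were higher in LCR under smoke (56.2% with quantile normalization) and 37.3% under sham (20.7% with median-centred arrays). Probe set 1388485_at had 240, 1014 and 1385 in LCR smoke, against 209, 297 and 421 in HCR smoke. Under sham it had 317, 898 and 1038 in LCR, against 308, 450 and 518 in HCR. Of 12 LCR smoke arrays 11 were above every HCR smoke array, and of 7 LCR sham arrays 6 were above every HCR sham array. The difference was 1.58 ± 0.19 under smoke (adjusted p = 2.1e-06), or 2.98-fold, and 0.90 ± 0.25 under sham (adjusted p = 0.0353), or 1.87-fold.

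The dimmer probe set of Cxcl14, 1396129_at, had 21, 44.0 and 56.1 in LCR smoke, against 16.6, 20.1 and 31.8 in HCR smoke, and 17.6, 31.5 and 47.0 in LCR sham, against 16.4, 21.1 and 31.7 in HCR sham. It was higher in LCR by 0.61 ± 0.10 under smoke (adjusted p = 0.000197 over all probe sets), and by 0.35 ± 0.13 under sham, which did not pass (adjusted p = 0.123). The arrays LCR smoke 0431 and LCR sham 0444 lay within the HCR range on both probe sets, at 240 and 317 on 1388485_at where the other LCR arrays had 764 or more. For 94 other genes that differed between the lines in the same direction under both exposures, LCR smoke 0431 was nearer to its own line for 81.9%, where LCR smoke arrays ran from 73.4% to 92.6%. LCR sham 0444 was nearer to its own line for 79.8%, the lowest of the LCR sham arrays, where the next lowest had 88.3%. HCR sham 0432 had the lowest share of all arrays, 60.6%. The same 94 genes served for every array and were chosen with the judged array included. That choice favours a high share for the array's own line. The shares therefore cannot decide whether LCR smoke 0431 or LCR sham 0444 belongs to its named line.

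The sham call of Cxcl14 was lost in 9 of the 38 fits that left out 1 array, with adjusted p between 0.0532 and 0.0798, those without LCR sham 0440, 0441, 0442, 0443, 0445 or 0446, or without HCR sham 0434, 0435 or 0439. Without LCR sham 0444 the difference was 1.12 (adjusted p = 0.00383). It also ended with only the 2 groups compared in the fit (0.0666) and without the 6 arrays with muscle signal (0.0863).

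In the fit to all groups, Cxcl14 passed with smoke in neither line. The LCR value was 0.22 ± 0.22 (adjusted p = 0.424), and it was 0.39 without LCR smoke 0431 (adjusted p = 0.0471) and 0.00014 without LCR sham 0444. The HCR value was -0.46 ± 0.22 (adjusted p = 0.0892), with all 12 smoke arrays below the sham mean and 8 below every sham array. Its SE comes from a variance shared by all groups. The SD of Cxcl14 was 0.66 log2 in LCR smoke and 0.59 in LCR sham, against 0.23 in HCR smoke and 0.27 in HCR sham. At the same -0.46, the HCR value passed without LCR smoke 0431 (0.0193), an array outside this comparison. It also passed with only the 2 groups compared in the fit (0.00318). The HCR call thus depended on which LCR arrays were in the fit. The changes differed by 0.68 ± 0.32 (adjusted p = 0.237). Of 9 airway epithelial markers, 1 was higher in LCR under smoke, Epcam (0.24 ± 0.04), and 0 were lower, and 0 passed under sham with limma at an adjusted or an unadjusted p under 0.05. Between the lines, the shares of all genes called were 4.61% higher and 1.7% lower under smoke, and 1.39% and 2.34% under sham. With smoke 2 of the 9 markers fell in LCR, and 2 rose and 2 fell in HCR. Of all genes, 27.9% were called lower in LCR, and 17.7% higher and 30.4% lower in HCR.

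**Figure D5:**
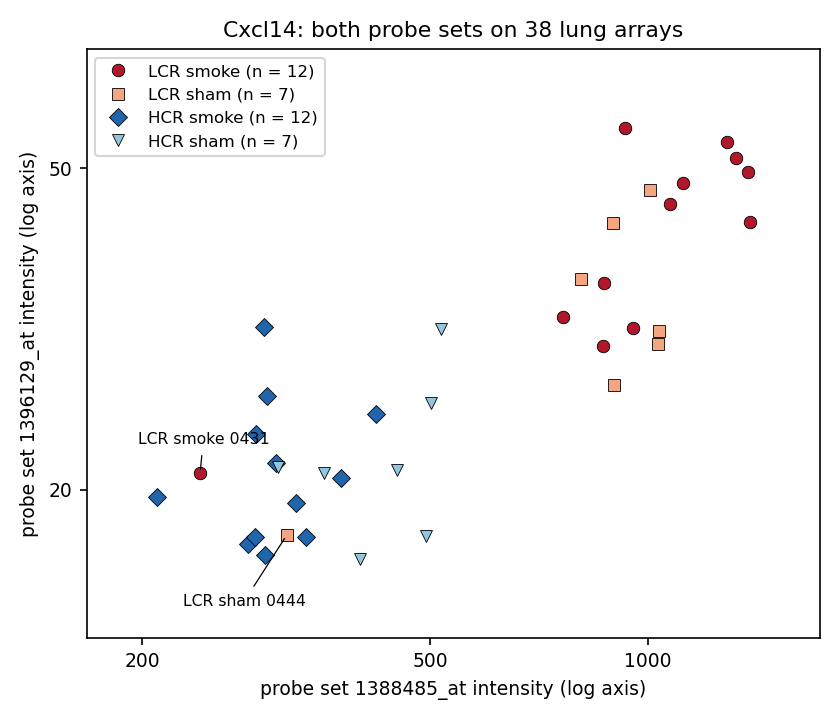
Intensity of the 2 probe sets of Cxcl14 against each other (both log axes), 1 point per lung, with symbols for LCR smoke, LCR sham, HCR smoke and HCR sham. LCR arrays lie at 764 or more on the brighter probe set, except LCR smoke 0431 at 240 and LCR sham 0444 at 317, which lie among the HCR arrays.

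The other members showed no line difference that passed. Cxcl9 was at 0.49 ± 0.17 under smoke (adjusted p = 0.0759, passing at 0.0426 without HCR smoke 0409 and at 0.0435 with array weights) and -0.29 ± 0.22 under sham. Cxcl10 was at 0.15 ± 0.18 and 0.32 ± 0.23, Cxcl11 at 0.25 ± 0.11 and 0.17 ± 0.15, and Cxcl16 at -0.01 ± 0.04 and -0.12 ± 0.06. The median over the 7 genes was 0.15 under smoke and 0.31 under sham, against 0.006 and -0.01 over all genes.

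Within groups the chemokines did not move as a block. Of the 21 pairs, 2 passed a permutation test of the residuals from the group means, over 38 arrays and adjusted over the pairs. Cxcl12 and Cxcl13 had r = 0.66 and rho = 0.63 (permutation test, adjusted p = 0.00042 for r), with r = 0.62 without the 2 arrays farthest from the median of Cxcl12 and 0.57 without the 6 arrays with muscle signal. Cxcl11 and Cxcl16 had r = 0.61 and rho = 0.61 (permutation test, adjusted p = 0.00042 for r), with 0.57 and 0.59 on the same terms. Among the Cxcr3 ligands r was -0.14 for Cxcl9 and Cxcl10, 0.19 for Cxcl9 and Cxcl11, and 0.41 for Cxcl10 and Cxcl11 (permutation test, adjusted p = 0.191). The arrays share tissue makeup and RNA quality, whose part was not tested.

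The genes most like the other members, by the same residual correlation over 38 arrays, differed from ligand to ligand and carry no test. For Cxcl10 they were Cd5l, a macrophage secreted protein (0.77), the antiviral gene Mx1 (0.74) and Apol9a (0.74). For Cxcl11 they were Pclaf (0.71) and Cenpw (0.69), both genes of dividing cells, and Prss48 (0.69). For Cxcl16 they were the lamin gene Lmnb2 (0.69), Gng2 (0.67) and Tnfaip2 (0.66), for Cxcl12 Tspan3 (0.72), Odf2l (0.70) and the secreted Wnt antagonist gene Sfrp2 (0.67), for Cxcl14 Utp20 (0.55), Nkd1 (0.55) and Arsk (0.54), and for Cxcl9 Lhx2 (0.55), Clec2l (0.54) and Hemk1 (0.53).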

How the data were processed

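Each of 38 rats gave lung RNA for 1 Affymetrix array (Rat Genome 230 2.0). The values used are the deposited probe set intensities on a linear scale, between 2.09 and 11558. The software with which the authors summarised and normalized them is not given in the sources. Of 31099 probe sets, 57 were controls, 20826 had 1 gene symbol in the platform annotation, 436 several and 9780 none. The probe set with the highest mean log2(intensity + 16) stood for each of 14217 genes, with no further normalization.

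The 4 group means were fitted with limma 3.58.1 (lmFit and eBayes, R 4.3.3), and 5 contrasts were adjusted by Benjamini-Hochberg over all genes. Within-group correlations used residuals and 100000 permutations within groups (scipy 1.17.1, Python 3.11.15). The limma script was tested on simulated data. The chemokines, gene lists and tests were chosen with earlier results of these data known. Named genes are the members, the receptors and enzymes, the 3 genes most like each member, and up to 3 passing genes per list and comparison. The listed genes were taken in order of p, and values in the other line are given for only some of them. The airway epithelial genes called with smoke are not given with their smoke values. Other settings were quantile normalization, median-centred arrays, a pseudocount of 1, the mean of probe sets, every probe set on its own, a filter on dim genes, only the 2 groups compared, a robust variance trend, array weights, 3 covariates, the 6 arrays with muscle signal left out, and each array left out in turn. Promoters came from RefSeq (GRCr8), where all 7 genes matched.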

Additional observations from a re-analysis of the deposited data

Results flagged for a closer look

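Cxcl14 on array LCR sham 0444 was 8.38 on the log2(intensity + 16) scale, an intensity of 317, while the other LCR sham arrays lay between 9.69 and 10.04. The gap was 0.788 of the group's range, above the 95% critical value of 0.568 for 7 arrays. Only the sham groups were small enough for this test, which was made in 14 groups of values, and chance flags about 1 in 20. The smoke change of Cxcl12 differed between the lines by -0.73 (limma, adjusted p = 0.0449).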

How the results depend on the processing

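Of 448 values of the 7 genes under other settings, 425 kept their direction and side of the threshold, 15 lost a call, 6 gained one and 2 changed sign. Of 1330 values with 1 array left out, 1281 kept both, 35 lost a call, 11 gained one and 3 changed sign. The 5 sign changes, none of which passed, were Cxcl12 with smoke in HCR (-0.028, mean of probe sets), Cxcl16 in LCR minus HCR under smoke (0.000343 with array weights, 0.01 without HCR smoke 0412), and Cxcl10 without LCR smoke 0426, with smoke in LCR (-0.06) and in LCR minus HCR under smoke (-0.027). With 1 array left out, these Cxcl10 values ran from -0.059 to 0.203 and from -0.027 to 0.217, and that of Cxcl16 from -0.0297 to 0.0138. The count of members called with smoke in LCR was 4 and became 2 with the interquartile range as a covariate and without the 6 arrays with muscle signal. With smoke in HCR it was 3, and it lost Cxcl9 with the mean of probe sets, with that covariate and without the 6 arrays. The HCR count gained Cxcl12 with quantile normalization, median-centred arrays or array weights, and Cxcl14 with only the 2 groups compared. In LCR minus HCR it was 2 under smoke and became 1 with the mean of probe sets and without the 6 arrays, and it was 1 under sham and became 0 with only the 2 groups compared and without the 6 arrays. For the difference between the smoke changes it was 1 and became 0 with the mean of probe sets and without the 6 arrays, and 2 with array weights. With 1 array left out these counts ran from 2 to 5 with smoke in LCR, 3 to 4 in HCR, 1 to 3 under smoke, 0 to 1 under sham and 0 to 1 for the difference between the changes. The causes were not tested. Over all genes, 6830 were called with smoke in HCR, and 3024 with the interquartile range as a covariate. Under smoke 898 differed between lines, and 2860 with array weights, 366 with that covariate and 487 without the 6 arrays. Under sham 531 did, and 946 with array weights, 830 with that covariate, 816 with median-centred arrays and 233 with only the 2 groups compared, with 314 without HCR sham 0434 and 830 without 0432. For the difference between the changes it was 266, and 629 and 565 with the Actb and Gapdh covariates, 1537 with array weights, 552 with median-centred arrays and 58 without the 6 arrays. The correlation test was rerun only with quantile normalization and without the 6 arrays, where again 2 pairs passed. Cxcl12 with Cxcl13 had r = 0.66 and 0.57 there, and Cxcl11 with Cxcl16 had 0.66 and 0.59. No paired analysis was possible because the groups share no array numbers. Signals near the low end limit Cxcl10, Cxcl11 and Cxcl13, which reached an intensity of 32 on 10, 13 and 17 of 38 arrays.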
